A study of Mus musculus with 6 samples.

Results

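The 10 genes below belong to the IL-6, oncostatin M and colony-stimulating cytokine system and were measured by RNA sequencing of whole skin. They were chosen by gene symbol from a table of 23951 genes, and all 10 were found: the ligands Il6, Osm, Lif, Il11, Csf2 and Csf3 and the receptor chains Osmr, Il6ra, Il6st and Il31ra. The skin came from 3 JunBΔep mice (labelled JunB dep) and 3 control mice (labelled JunB +/+), all C57Bl/6 and 6 to 7 months old by the labels, and described as littermates. In JunBΔep mice Junb is deleted in cells that express keratin 5, which are basal keratinocytes and related epithelium, so that dermal and immune cells keep the gene. The JunBΔep skin was taken from lesions, and mice of both sexes were used in the study. The replicate numbers 0, 1 and 2 name single mice and do not tie a mutant mouse to a control mouse.

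IL-6, IL-11, LIF and oncostatin M share the signalling chain gp130, which Il6st encodes. Each ligand first binds a partner chain (IL-6 binds the product of Il6ra, IL-11 that of Il11ra1, LIF that of Lifr, and mouse oncostatin M mainly that of Osmr), and the assembled receptor activates Jak kinases and the transcription factor STAT3. IL-31, a cytokine of itch, uses Osmr together with Il31ra instead of gp130. Csf2 (GM-CSF) and Csf3 (G-CSF) bind receptors of their own and drive the production and survival of myeloid cells, in the case of Csf3 neutrophils. In skin, oncostatin M acts on keratinocytes, and JunB is a subunit of AP-1, a transcription factor that binds many cytokine promoters.

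Promoter sequence was available for 8 of the 10 genes in a RefSeq table of mouse promoters. Osm and Csf3 had none and were not searched. The 250 bases before each start were placed on the mm9 build by exact match. The motifs searched on both strands were TGAGTCA for AP-1, TTCNNNGAA for STAT factors and, for NF-kB, GGG and TTTCC with any 2 bases between them. No 2 of the matches found in these genes overlapped. The AP-1 letters stood before a start of 3 ligands, Il6, Lif and Il11, and the windows of these 3 are shown because they carry the site that JunB-containing dimers can bind. Capitals mark the motif matches, and each line runs 5′ to 3′ on the gene's own strand.
Il6, chr5:30339404-30339653 (mm9, plus strand): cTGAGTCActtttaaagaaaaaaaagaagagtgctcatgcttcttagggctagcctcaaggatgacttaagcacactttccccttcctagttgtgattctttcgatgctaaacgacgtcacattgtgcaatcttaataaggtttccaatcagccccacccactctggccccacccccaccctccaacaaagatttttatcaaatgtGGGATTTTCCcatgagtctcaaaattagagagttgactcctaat
Lif, chr11:4157321-4157570 (mm9, plus strand): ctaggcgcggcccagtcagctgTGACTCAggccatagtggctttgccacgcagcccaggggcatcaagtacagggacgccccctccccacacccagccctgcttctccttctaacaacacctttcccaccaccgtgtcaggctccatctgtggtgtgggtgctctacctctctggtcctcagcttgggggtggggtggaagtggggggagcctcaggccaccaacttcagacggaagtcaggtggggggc
Il11, chr7:4729744-4729993 (mm9, minus strand): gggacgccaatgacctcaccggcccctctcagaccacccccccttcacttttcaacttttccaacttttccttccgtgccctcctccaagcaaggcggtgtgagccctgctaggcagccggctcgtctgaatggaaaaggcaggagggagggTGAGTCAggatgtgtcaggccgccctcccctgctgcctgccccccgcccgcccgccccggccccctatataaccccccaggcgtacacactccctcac

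In Il6 the AP-1 letters lie 249 to 243 bases before the start and the NF-kB letters 44 to 35 bases before it. The AP-1 letters lie 228 to 222 bases before the start of Lif and 98 to 92 bases before this start of Il11. The Il11 window shown lies within the annotated span of the gene, and its other window, further upstream, held no match, nor did the window of Csf2. Of the receptor chains, Il31ra held the STAT letters 191 to 183 bases before its start, and the windows of Osmr, Il6ra and Il6st held no match. Over the 32841 promoter windows of the table, 4.46% held the AP-1 letters, 1.41% the NF-kB letters and 7.02% the STAT letters. A match is a run of letters, and binding was not measured here.

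By the GENCODE annotation of mm9, Osm (chromosome 11, 4136423 to 4141029) and Lif (4157560 to 4172517) are neighbours on the plus strand, 16.5 kb apart with no protein-coding gene between them. Il6st (chromosome 13, 113265216 to 113297068, plus strand) and Il31ra (113313018 to 113370870, minus strand) are neighbours as well, 15.9 kb apart and facing each other. Il6 lies on chromosome 5 from 30339701 to 30346508, Il11 on chromosome 7 from 4724669 to 4734460 and Csf3 on chromosome 11 from 98562577 to 98564943. Csf2 (chromosome 11, 54060773 to 54063169, minus strand) is overlapped by the processed transcript Gm12223 on the other strand. The libraries keep strand, but the sources used here do not say whether the values were computed by strand. Osmr lies on chromosome 15 from 6763577 to 6824313 and Il6ra on chromosome 3 from 89673246 to 89717084.

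Values are deposited FPKM, that is fragments scaled to transcript length in kilobases and to 1000000 mapped fragments. They sum to 481078 to 630363 per mouse. Since read numbers are unknown, no counting error can be given for the low values below. Groups were compared by limma as log2(FPKM + 0.5), a scale that shrinks differences of low genes, over 17021 genes averaging 0.1 FPKM or more. A gene is called at a Benjamini-Hochberg adjusted p below 0.05. Junb itself was at 59.3, 72.4 and 56.9 FPKM across control replicates 0, 1 and 2, against 129.6, 42.8 and 28.0 FPKM across those labelled JunBΔep replicates 0, 1 and 2. In the library labelled JunBΔep replicate 0 the Junb level thus ran against the label, in a tissue where dermal and immune cells keep the gene, and this library was the highest of the 6 libraries in 29.7% and the lowest in 32.0% of the tested genes. The keratinocyte markers Krt5 (1588 to 3725 FPKM) and Krt10 (1968 to 3872 FPKM) were abundant in all 6 libraries. Of the 10 markers in that list, 6 were above and 3 below every control in JunBΔep replicate 0 (37.4% and 39.3% of all tested genes). The 3 include Krt14, which was listed at 0 there (837 to 1304 FPKM elsewhere). With no read counts, a listed 0 such as those of Krt14 and S100a9 in that library cannot be told apart from a missing value. Krt15 was at 80.7 FPKM there (947 to 2388 elsewhere) and Krt1 at 4466 FPKM (446 to 958 elsewhere). Skeletal muscle markers were low in all 3 JunBΔep mice, JunBΔep replicate 0 included, with median log2 differences from the control mean of -3.61, -3.59 and -2.30 in replicates 0, 1 and 2. Of 8 such markers 7 were called lower (1.38% of all tested genes), though no gene at all was called with either block, without any 1 control or without JunBΔep replicate 1. Control replicate 0 stood apart in 8 liver markers, which summed to 2077 FPKM there and to 2.54 to 52.9 FPKM elsewhere. The members are given by mouse, with values without JunBΔep replicate 0 where it bears on them.

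The 6 ligands were higher in 1 mouse than in the other 5. In the library labelled JunBΔep replicate 0 their values summed to 144 FPKM, and in the other 5 libraries to 1.68 to 2.52 FPKM. The 4 receptor chains summed to 66.7 FPKM in that library and to 30.3 to 67.4 FPKM in the others. No member was called by limma (0 of 10, against 1.38% of all tested genes, all of those 235 lower in JunBΔep skin and 0 higher), 0 of 10 had an unadjusted p below 0.05 (1.43% of all tested genes higher and 6.13% lower in JunBΔep skin), and in 0 of 10 did the 3 JunBΔep mice stand clear of the 3 controls (14.8% of all tested genes). The lowest exact two-sided permutation p over the members was 0.2, and 3 mice against 3 cannot give less than 0.1.

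**Figure D1:**
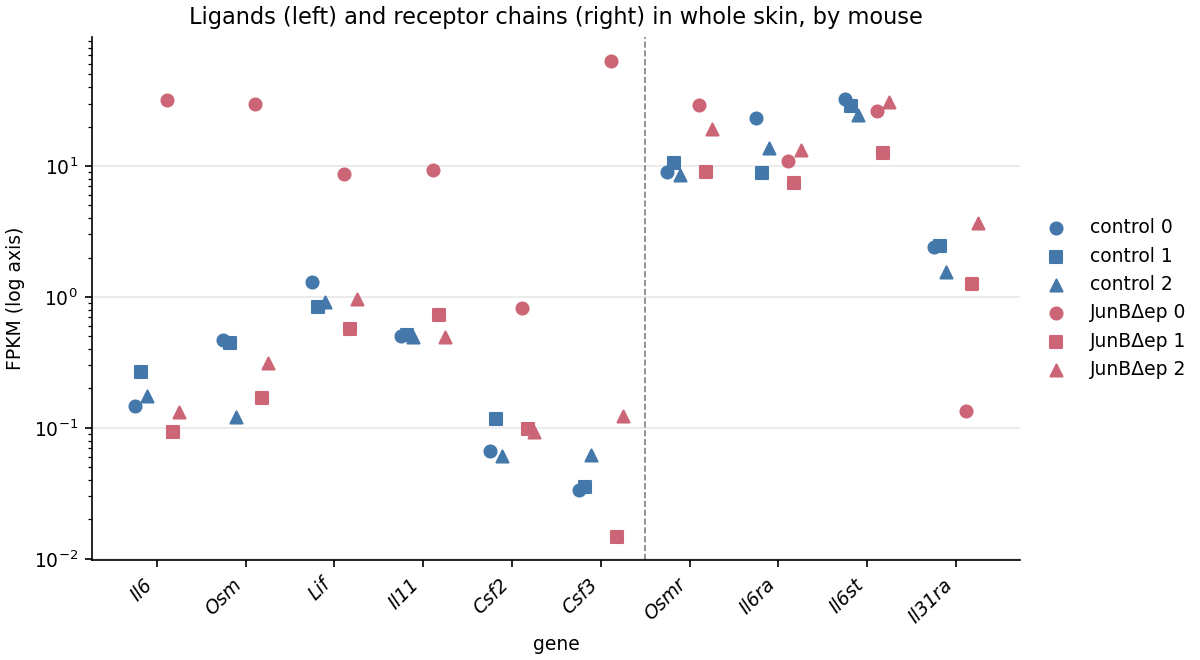
FPKM of the 10 genes on a log axis, with 1 point per mouse, control mice in blue and JunBΔep mice in red, and the replicate number given by the symbol (the same symbol in both groups does not mark a pair). The 6 ligands left of the dashed line are highest in JunBΔep replicate 0, while among the receptor chains Osmr is highest and Il31ra lowest in that mouse.

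Csf3, the growth factor of neutrophils, had the widest range between mice among the members. It was at 0.0338, 0.0354 and 0.0621 FPKM across control replicates 0, 1 and 2, against 63.9, 0.0148 and 0.123 FPKM across JunBΔep replicates 0, 1 and 2. The library labelled JunBΔep replicate 0 was 521 times the highest of the other 5, and JunBΔep replicates 1 and 2 lay on either side of the control range. By limma, the log2 fold change was 2.33 with an SE of 1.85 (adjusted p = 0.722). Csf3 stood above 13.1% to 15.9% of genes in the control libraries and above 92.9% in JunBΔep replicate 0. These shares are over genes detected in any library, so genes listed at 0 in the library at hand count as lower.

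Il6, the founding ligand of the family, was at 0.148, 0.266 and 0.175 FPKM across the controls, against 31.8, 0.0927 and 0.132 FPKM across JunBΔep replicates 0, 1 and 2. JunBΔep replicates 1 and 2 were both below every control, and replicate 0 was 119.7 times the highest other library. Osm, a cytokine made mainly by myeloid and T cells, was at 0.471, 0.442 and 0.122 FPKM across the controls, against 30.01, 0.169 and 0.313 FPKM across the JunBΔep mice, where replicates 1 and 2 lay inside the control range. Their log2 fold changes were 1.72 for Il6 (SE 1.55, limma adjusted p = 0.725) and 1.62 for Osm (SE 1.47, limma adjusted p = 0.726). Without JunBΔep replicate 0 both values turned negative, to -0.18 for Il6 and -0.17 for Osm.

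Il11 was nearly level in the controls, at 0.499, 0.509 and 0.493 FPKM, and at 9.25, 0.732 and 0.491 FPKM across JunBΔep replicates 0, 1 and 2. It was the single ligand above every control in JunBΔep replicate 1, by a small margin. Lif, the neighbour of Osm, was at 1.30, 0.840 and 0.908 FPKM across the controls, against 8.64, 0.570 and 0.966 FPKM across the JunBΔep mice. The high library exceeded the next by 12.6 times for Il11 and by 6.65 times for Lif, a smaller step than for Il6 or Osm. Their log2 fold changes were 1.19 and 0.69, and without JunBΔep replicate 0 they were 0.14 and -0.26.

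Csf2 stayed low throughout, at 0.0668, 0.117 and 0.0614 FPKM across the controls, against 0.822, 0.0976 and 0.0925 FPKM across JunBΔep replicates 0, 1 and 2. Its highest value was 7.05 times the next, and JunBΔep replicates 1 and 2 lay inside the control range. Csf2 and Csf3 passed the filter on low values through JunBΔep replicate 0 and were not tested without it. The log2 fold change of Csf2 was 0.42 (adjusted p = 0.722 by limma).

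Osmr, the oncostatin M and IL-31 receptor chain, was the member with the lowest p. It was at 8.95, 10.5 and 8.53 FPKM across control replicates 0, 1 and 2, against 29.3, 9.03 and 19.1 FPKM across JunBΔep replicates 0, 1 and 2. JunBΔep replicates 0 and 2 were above every control and replicate 1 lay inside the control range. By limma, the log2 fold change was 0.86 with an SE of 0.42 (unadjusted p = 0.0861, adjusted p = 0.719, exact permutation p = 0.2), and it was 0.48 without JunBΔep replicate 0 and 1.30 without JunBΔep replicate 1 (adjusted p = 0.213 by limma). The sample names run in 2 number series, 23 and 27, whose meaning the labels do not give. The mean difference of Osmr was 1.55 on the log2 scale in series 23 (1 JunBΔep mouse, replicate 0, and 2 controls). In series 27 (2 JunBΔep mice, 1 control) it was 0.60. There JunBΔep replicate 1, at 9.03 FPKM, was near the control at 8.53 FPKM, and replicate 2 was at 19.1 FPKM. Each value thus rests mainly on 1 raised JunBΔep mouse. For Il6 the same differences were 5.52 and -0.14, and for Csf3 6.91 and 0.01.

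Il31ra, which pairs with Osmr in the IL-31 receptor, ran the other way in the library with the highest Osmr. It was at 2.41, 2.47 and 1.55 FPKM across the controls, against 0.134, 1.26 and 3.66 FPKM across JunBΔep replicates 0, 1 and 2. The first of these was the lowest of the 6, with every other library at least 9.39 times higher, and the last was the highest. By limma, the log2 fold change was -0.64 with an SE of 0.68 (adjusted p = 0.753) and 0.053 without JunBΔep replicate 0. Il31, its ligand, was listed at 0 in 5 libraries and at 0.0276 FPKM in JunBΔep replicate 0.

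Il6st, the shared gp130 chain, was at 32.7, 28.6 and 24.3 FPKM across the controls, against 26.3, 12.7 and 31.1 FPKM across the JunBΔep mice. Il6ra, the chain that binds IL-6, was at 23.3, 8.90 and 13.7 FPKM and at 10.9, 7.36 and 13.2 FPKM. Both were lowest in JunBΔep replicate 1, and in JunBΔep replicate 0 both were inside the control range. The log2 fold change was -0.37 for Il6st (SE 0.35, limma adjusted p = 0.735) and -0.46 for Il6ra (SE 0.39, limma adjusted p = 0.723). Without JunBΔep replicate 1 the value of Il6st was 0.013, and that of Il6ra was -0.11 without control replicate 0, -0.78 without control replicate 1 and -0.24 without JunBΔep replicate 1.

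FPKM values are per length, so levels can be set side by side between genes. By mean over the 3 controls the order was Il6st (28.5 FPKM), Il6ra (15.3), Osmr (9.32), Il31ra (2.14), Lif (1.02), Il11 (0.50), Osm (0.345), Il6 (0.196), Csf2 (0.0816) and Csf3 (0.0437). Neighbours in this order overlapped between control mice for Il6ra and Osmr, for Osm and Il6, and for Csf2 and Csf3. Every receptor chain stood above every ligand in each control mouse. In the library labelled JunBΔep replicate 0 the order was Csf3, Il6, Osm, Osmr, Il6st, Il6ra, Il11, Lif, Csf2 and Il31ra, with 63.9 FPKM for the first and 0.134 FPKM for the last. Csf3, last in the controls, was first there, and 3 ligands exceeded every receptor chain of the set. That library was the highest of the 6 in 7 of 10 members and the lowest in 1 of 10. It was at least 8 times every other library in 4 of 10 members (Il6, Osm, Il11 and Csf3; 1.48% of all tested genes) and at most an eighth of every other library in 1 of 10 (Il31ra; 2.88%).

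Of 11 other listed genes of the gp130 family, 10 passed the filter and 0 were called in either direction. The median log2 fold change over these 10 was -0.21, against 0.031 over all tested genes. Clcf1, a ligand of the ciliary neurotrophic factor receptor, was at 3.04, 2.74 and 2.56 FPKM across the controls, against 22.8, 4.07 and 3.65 FPKM across JunBΔep replicates 0, 1 and 2, so that all 3 JunBΔep mice were above all 3 controls, as in 5.62% of tested genes. The log2 fold change of Clcf1 was 1.22 (adjusted p = 0.722 by limma), with differences from the control mean of 2.83, 0.48 and 0.34 in the single JunBΔep mice. Cntfr, the binding chain of that receptor, overlapped between the groups, with 4.204, 3.44 and 16.1 FPKM across the controls, against 25.4, 40.8 and 5.18 FPKM across the JunBΔep mice. Lifr, the LIF receptor chain, was at 7.50 to 8.62 FPKM across the controls, against 3.47, 4.63 and 8.95 FPKM across JunBΔep replicates 0, 1 and 2. Il11ra1 was at 32.1 to 60.5 FPKM across the controls, against 25.9 to 51.8 FPKM in JunBΔep mice, a value that can hold reads of near-identical copies of that gene.

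Of 11 genes around the colony-stimulating factors, 9 were tested and 0 were called in either direction, with a median log2 fold change of -0.0027 (-0.18 without JunBΔep replicate 0). Csf3r, the G-CSF receptor of neutrophils, was at 3.70, 1.11 and 0.950 FPKM across the controls, against 44.3, 0.561 and 1.83 FPKM across JunBΔep replicates 0, 1 and 2. The library high in Csf3 was therefore also high in its receptor, at 4.39 log2 units over the control mean. Csf2ra, which binds GM-CSF, was at 20.1, 8.55 and 15.1 FPKM across the JunBΔep mice and 9.55 to 14.5 FPKM in controls. Its signalling partner Csf2rb was at 22.2, 3.15 and 10.6 FPKM and 4.48 to 7.71 FPKM, and the near-identical Csf2rb2 had the same order of mice. Csf1r and its ligands Csf1 and Il34, which maintain macrophages and Langerhans cells, were not high in JunBΔep replicate 0, where Csf1 was at 15.8 FPKM (14.1 to 18.6 in controls) and Il34 at 12.4 FPKM (23.6 to 54.1 in controls). In JunBΔep replicate 1, 9 of these 9 genes were below every control (33.1% of all tested genes in that mouse), as were 10 of 10 macrophage and 8 of 8 endothelial markers, and the part of these cell types in those values was not tested. Il3 was listed at 0 in all 6 libraries.

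**Figure D2:**
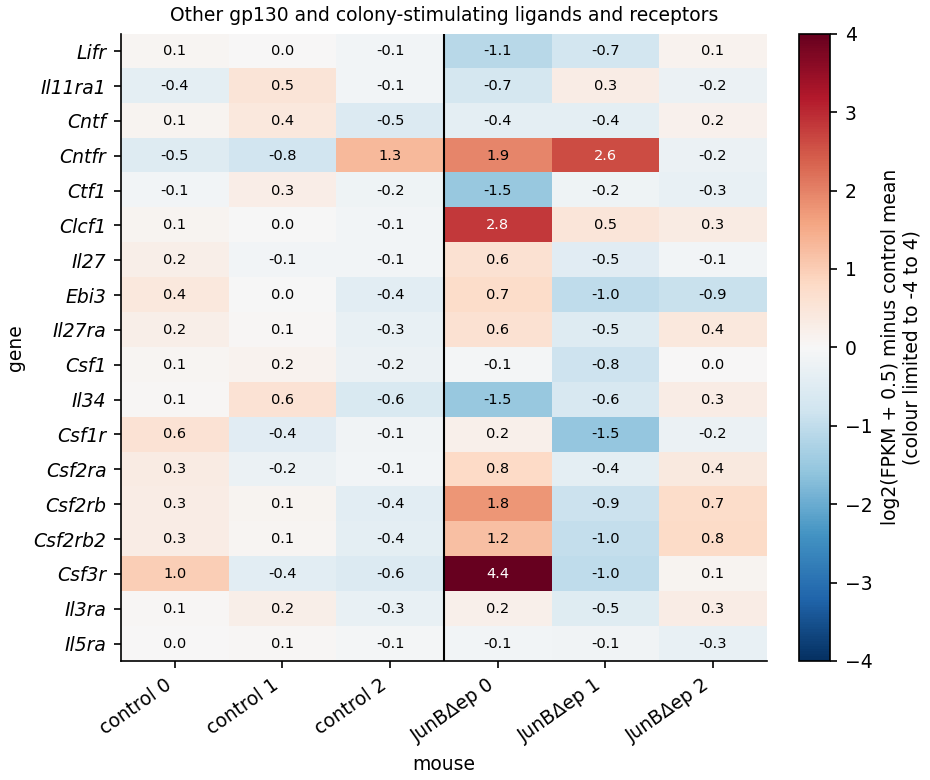
Difference of log2(FPKM + 0.5) from the control mean for 18 ligands and receptors of the gp130 and colony-stimulating systems (rows) in each mouse (columns), with the value printed in each cell. Csf3r and Clcf1 stand out in JunBΔep replicate 0, at 4.39 and 2.83, and the genes of the colony-stimulating system are negative in JunBΔep replicate 1.

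Among 13 Jak, Stat and feedback genes 0 were called, and the median log2 fold change was 0.076. Stat3, the main transcription factor below gp130, was at 41.7, 40.0 and 37.2 FPKM across the controls, against 113.8, 31.5 and 50.4 FPKM across JunBΔep replicates 0, 1 and 2, above every control in replicates 0 and 2. Socs1, a feedback inhibitor, was at 24.9 FPKM in JunBΔep replicate 0 and at 3.83 to 6.76 FPKM elsewhere. Stat5b was below every control in all 3 JunBΔep mice (9.16% of tested genes), at 7.46, 7.44 and 13.1 FPKM against 14.2 to 17.0 FPKM (log2 fold change -0.77, unadjusted p = 0.0248, adjusted p = 0.487 by limma).

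The 15 genes listed as known to respond to gp130 or STAT3 signalling reached a median of 0.77 in log2 fold change, 13 being above 0 and 0 called. Without JunBΔep replicate 0 this median was 0.054. In 14 of 15 the highest library was JunBΔep replicate 0 (29.7% of all tested genes), the exception being Lrg1 at 63.2 FPKM there and 158 FPKM in control replicate 0. The list was chosen with earlier results of these data known, so this count is not independent of them. Timp1, a protease inhibitor induced by oncostatin M, was at 3.04, 2.96 and 2.31 FPKM across the controls, against 106.6, 3.00 and 3.90 FPKM across the JunBΔep mice. Bcl3 was at 69.4 FPKM in JunBΔep replicate 0 and 5.32 to 9.49 FPKM in the other 5 libraries. Saa3, an acute-phase gene, was at 9.67, 2.09 and 1.31 FPKM across the controls, against 3720, 24.0 and 3.37 FPKM across JunBΔep replicates 0, 1 and 2, the last inside the control range. Fosl1, another AP-1 subunit, was at 15.6 FPKM in JunBΔep replicate 0 and at most 0.414 FPKM elsewhere. Myc was the gene of this list whose groups did not overlap (1 of 15, against 5.62% of tested genes higher in this way), at 19.2, 22.95 and 19.97 FPKM across the controls, against 54.2, 27.5 and 27.2 FPKM across the JunBΔep mice (log2 fold change 0.72, unadjusted p = 0.0508, adjusted p = 0.666 by limma).

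**Figure D3:**
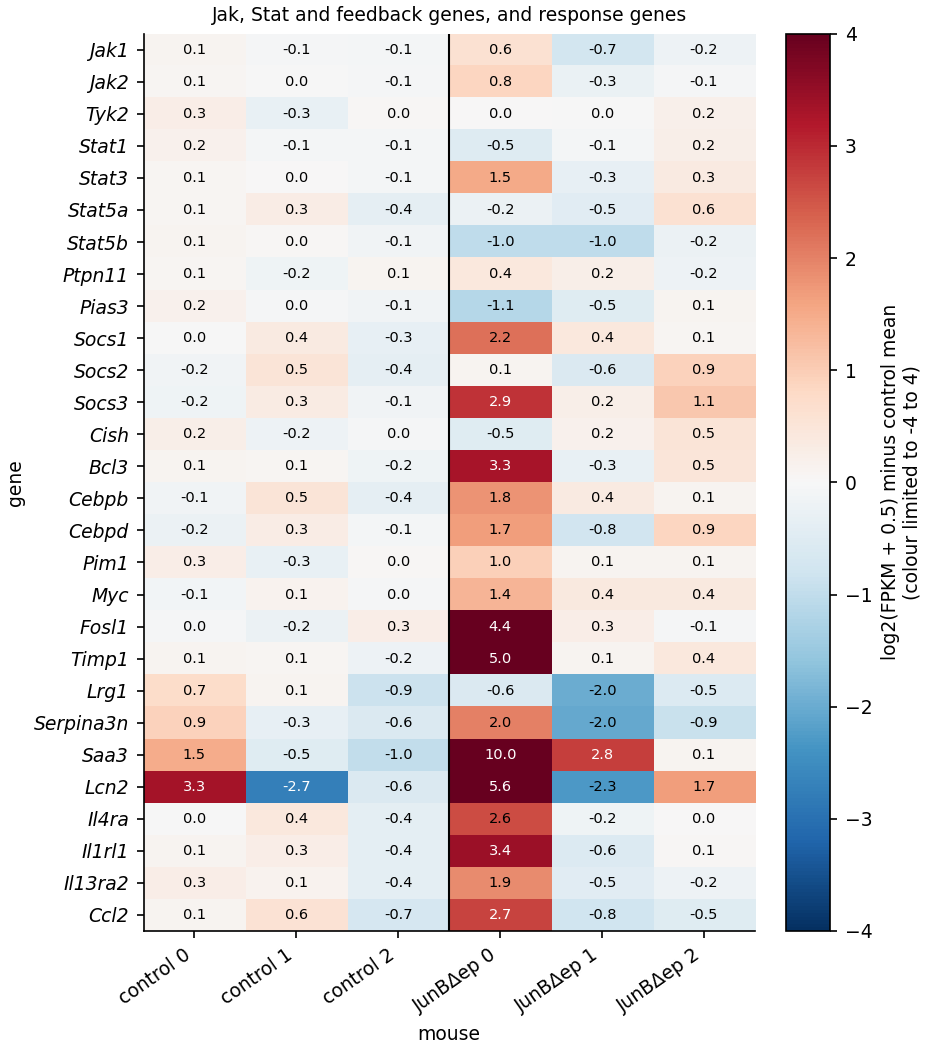
Difference of log2(FPKM + 0.5) from the control mean for 13 Jak, Stat and feedback genes and 15 response genes (rows) in each mouse (columns), with the value printed in each cell. In JunBΔep replicate 0 the response genes other than Lrg1 lie above every control, with differences from the control mean of 0.97 for Pim1, the smallest, and of 5.55 for Lcn2, which Saa3 alone exceeds, whereas in replicates 1 and 2 they lie on both sides of 0.

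JunBΔep replicate 2 held Osmr, Il31ra, Stat3, Socs3 and Bcl3, among others, above every control. Of the ligands Csf3 alone was, at a low 0.123 FPKM against at most 0.0621 FPKM in the controls. In that mouse 2 of 4 receptor chains, 1 of 6 ligands and 4 of 15 response genes exceeded every control, and 25.1% of all tested genes did. So did 6 of 8 endothelial and 4 of 6 adipocyte markers, whose part in these values was not tested. In JunBΔep replicate 1 the counts were 0 of 4, 1 of 6 and 3 of 15, with 34.5% of all tested genes, and in replicate 0 they were 1 of 4, 6 of 6 and 14 of 15, with 37.4% of all tested genes. Below every control were 1 of 10 members in JunBΔep replicate 0 (39.3% of all tested genes), 6 of 10 in replicate 1 (33.1%) and 2 of 10 in replicate 2 (21.3%).

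Whole skin mixes cell types, so more cells of a type and more RNA per cell cannot be told apart. Of 12 neutrophil markers 11 were in the table, and 0 of 11 were called. Their values summed to 32.3 to 1899.5 FPKM across the controls, against 25.8 to 24996.5 FPKM in JunBΔep mice, with S100a9 and Elane listed at 0 in JunBΔep replicate 0 and Mmp8 in replicate 1. S100a8 alone made up 24456 FPKM of the highest sum, and the other 10 markers summed to 540.5 FPKM in that library and to 1155 FPKM in control replicate 0, of which S100a9 made up 698 FPKM. Without S100a9 as well, the 9 left summed to 540.5 and 457 FPKM, so the order of these libraries turned on that entry. The median of these markers against the control mean was 2.56 in JunBΔep replicate 0 and 3.78 in control replicate 0, the library that also held the liver transcripts. The median log2 fold change of the list, -0.75, ran from -2.26 to 1.57 over the mice left out in turn and was above 0 without control replicate 0 (1.57), control replicate 2 (0.53) or JunBΔep replicate 1 (0.27), and with the name series as a block (0.73). In that control Csf3, Il6 and Osm were at 0.0338, 0.148 and 0.471 FPKM. JunBΔep replicate 0 and this control differed in which markers they held: Ngp, Camp and Mpo, granule genes of immature neutrophils, were at 195, 112.6 and 32.0 FPKM in control replicate 0 and at 21.6, 4.37 and 0.0615 FPKM in JunBΔep replicate 0, and Retnlg and Cxcr2, genes of mature neutrophils, were at 18.6 and 2.45 FPKM and at 418 and 22.3 FPKM.

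The 10 macrophage and monocyte markers, with 0 called and none at 0, summed to 245 to 506 FPKM across the controls, against 877, 99.5 and 252 FPKM across JunBΔep replicates 0, 1 and 2. In JunBΔep replicate 0, Lyz2 (557 FPKM) and Cd14 (169.6 FPKM) made up most of the sum. There 6 of 10 were above and 1 of 10, Cd163, below every control (37.4% and 39.3% of all tested genes). The 10 T cell markers, also with 0 called and none at 0, summed to 20.9 to 45.2 FPKM across the controls, against 24.8, 19.9 and 32.5 FPKM, and in JunBΔep replicate 0 they split, with 4 of 10 above and 3 of 10 below every control (37.4% and 39.3% of all tested genes). The 5 markers of mucosal epithelium (Krt4, Krt13, Krt76, Sprr3 and Pax9) summed to 3798 FPKM in JunBΔep replicate 0 and to at most 1.41 FPKM in any other library, and the 6 adipocyte markers to 6.74 FPKM there and to 494 to 2743 FPKM elsewhere. The part of these cell types in the ligand values was not tested.

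**Figure D4:**
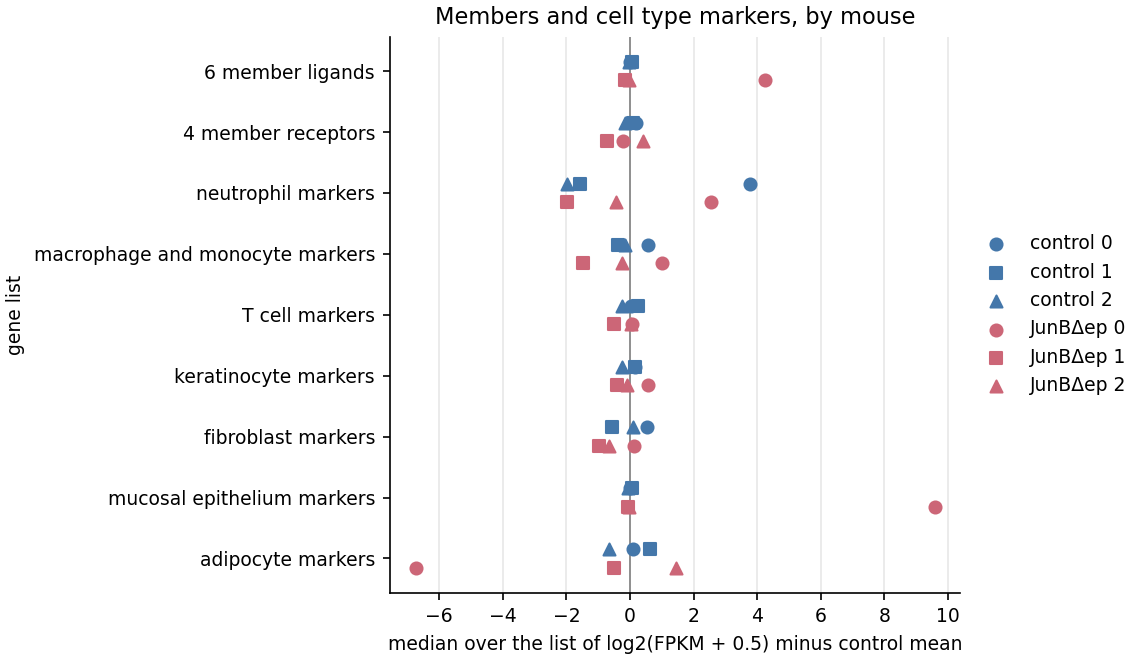
Median over each gene list of log2(FPKM + 0.5) minus the control mean (horizontal axis), with 1 point per mouse, control mice in blue and JunBΔep mice in red. The 6 ligands sit at 4.24 in JunBΔep replicate 0 and between -0.15 and 0.049 in the other 5 mice, whereas the neutrophil list is high in control replicate 0 as well.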

How the data were processed

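Poly(A) RNA of whole skin from 3 JunBΔep and 3 control mice was sequenced with strand-specific libraries. Read quality was inspected with FastQC and the authors aligned reads to mm9 with TopHat2 2.0.10, Bowtie 1.0.0 and SAMtools 0.1.19, and deposited FPKM values per gene and mouse. Cufflinks is listed in the submitters' processing notes without a role. The study's own test, DESeq2 on counts, was not used here because the table holds FPKM. Read depth is unknown. Genes below 0.15 FPKM were compared with control replicate 0, and the commonest ratio, shared by 14.2% to 17.4% of them, put the scaling totals of the libraries at 0.955 to 1.14 times that control, which limits the precision of the low values. Groups are the genotypes in the labels. Values were compared as log2(FPKM + 0.5) with limma 3.58.1 in R 4.3.3 (intensity trend, no block, two-sided, threshold 0.05 adjusted over 17021 genes at a mean of 0.1 FPKM or more), and members also by exact permutation over mice. The code was tested on simulated data. Where nothing says which animals were processed together, p-values measure the spread between these mice alone. Named genes were the 10 members, Junb, genes of hand-written lists and, for 4 members, the 5 genes nearest in profile. The members and lists were chosen with earlier results of these data known. Alternatives were other pseudocounts (0.1 and 1), other filters (none, or 1 FPKM), median-ratio and quantile scaling, no trend, blocks on the replicate number or name series, and leaving out each mouse. Gene positions are from GENCODE vM1. Promoters are from RefSeq (GRCm38.p6), placed on mm9 by sequence. Figures were drawn with matplotlib 3.10.9. No column was left unused (0). For 1 gene of the gp130 list, counted in its totals, no value is reported here.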

Additional observations from a re-analysis of the deposited data

How the results depend on the processing

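No member was called under any of the 15 alternatives, with adjusted p-values from limma between 0.213 and 0.986. Of 147 member values 142 kept their direction. The filter, trend and replicate-block settings returned the fold changes of the main fit, so those values could not turn. Csf2 and Csf3 were not tested without JunBΔep replicate 0, so the count holds no value for them there. The 5 that turned did so when 1 mouse was left out. An unadjusted limma p below 0.05 was reached by 1 of 10 members with the name series as a block. The same count, 1 of 10, held without JunBΔep replicate 1 and without JunBΔep replicate 2. With the name series as a block the log2 fold change of Osmr was 1.07 (SE 0.39, limma adjusted p = 0.539). Over the mice left out in turn, the log2 fold change ran from -0.18 to 2.70 for Il6, from -0.17 to 2.59 for Osm and from -0.26 to 1.28 for Lif, from -1.30 to 0.053 for Il31ra (each turning without JunBΔep replicate 0), and from -0.62 to 0.013 for Il6st (turning without JunBΔep replicate 1). The count over all genes, 235, fell to 0 with a replicate block and to 0 with the name series as a block. It ran from 0 to 254 over the mice left out, with 0 without any 1 control or without JunBΔep replicate 1, 135 without JunBΔep replicate 0 and 254 without JunBΔep replicate 2. The cause was not tested. Same-numbered mice did not deviate together (correlations across genes of 0.12, -0.228 and -0.426 for numbers 0, 1 and 2), so the numbers were not taken as pairs, and the replicate block changed no call among the members. Csf2 could not be tested at a filter of 1 FPKM. Over the alternatives that tested it, its log2 fold change ran from 0.26 (pseudocount 1) to 0.86 (pseudocount 0.1). That of Csf3 ran from 2.01 (pseudocount 1) to 3.54 (without JunBΔep replicate 1). Depth is unknown, so differences among values below 0.5 FPKM, such as those of Il6, Osm and Csf3 in the 5 libraries other than JunBΔep replicate 0, could not be set against counting error.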

Other observations

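Genes whose profile over the 6 mice was most like that of 4 members were found by the distance between profiles of log2(FPKM + 0.5), each centred on its own mean, as a description with no test. Nearest to Il6 were Dynap, Tmprss11bnl, Tmprss11d, Lyg1 and Lce3c, at distances of 0.283 to 0.427 log2 units. Dynap was at 22.8 FPKM in JunBΔep replicate 0 and stood at 0 in each of the others. Lce3c, a late cornified envelope gene, was at 159.5 FPKM there and 2.04 to 3.55 FPKM elsewhere. It was also the nearest gene to Osm, at a distance of 0.488, and Timp1 was at 0.6235. Because 1 library is far from the other 5 in these profiles, a small distance says mainly that the step in that library was of like size.

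The neighbours of Osmr were chosen for a like profile over the same mice, so their second rise in JunBΔep replicate 2 follows from that choice. Syn2, at a distance of 0.324, was at 0.542, 0.575 and 0.285 FPKM across the controls, against 2.18, 0.498 and 1.64 FPKM across JunBΔep replicates 0, 1 and 2. Ctsd, a lysosomal protease, was at 430 to 470 FPKM across the controls, against 1330.4, 459 and 698 FPKM across the JunBΔep mice. Hcar2, the niacin receptor, was at 20.2 to 28.0 FPKM against 74.1, 22.99 and 39.4 FPKM. Nearest to Il6st was Svep1, at 3.66 to 4.82 FPKM across the controls, against 3.83, 1.72 and 4.68 FPKM across the JunBΔep mice. Its low value in JunBΔep replicate 1 follows from the choice in the same way.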
